A study of Mus musculus with 12 samples.

Results

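The calcium release and reuptake genes are 10 genes that move calcium in and out of the sarcoplasmic reticulum, the calcium store of the muscle fibre. They were taken from the deposited expression table by gene name (Cacna1s, Ryr1, Casq1, Casq2, Atp2a1, Atp2a2, Sln, Pln, Pvalb and Stim1). All 10 were found, each on 1 row, among 30239 genes. Libraries were made from poly(A) RNA of the tibialis anterior, the mainly fast muscle along the shin, taken from naive mice at 6 months of age. DMD-Null mice are named for loss of the dystrophin gene, by a change that the labels leave unnamed. The mdx strain is the common mouse model of Duchenne muscular dystrophy and carries a nonsense mutation in the same gene. WT mice are the wild-type controls, with no strain named in the labels. Each genotype had 4 libraries. No label ties them to separate animals, and the tests therefore measure spread between libraries, which may be technical.

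In a resting fibre calcium sits in the sarcoplasmic reticulum, bound to calsequestrin. A voltage change in the fibre membrane is sensed by the dihydropyridine receptor, which opens the ryanodine receptor facing it across the triad, and calcium flows out to start contraction. The SERCA pumps then return calcium to the store and are held back by the short membrane peptides sarcolipin and phospholamban. Parvalbumin soaks up calcium in the cytosol of fast fibres, and STIM1 in the store membrane senses an empty store and opens calcium entry from outside. In fibres that lack dystrophin, disturbed calcium handling is a long-studied part of the disease.

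Libraries held 60693078 to 68054627 counts. Dmd, the gene the labels name, stood at 2.44, 1.002, 1.51 and 1.75 CPM (counts scaled to library size by TMM factors and to a common total) in DMD-Null 1 to 4 and at 14.5, 10.4, 11.9 and 17.6 CPM in mdx 1 to 4, against 12.5, 62.5, 9.58 and 41.4 CPM in WT 1 to 4. All DMD-Null libraries lay below all others, whereas mdx overlapped WT. WT 1 and WT 3 stood apart from the other libraries. Their TMM factors were 0.694 and 0.698, against 0.951 to 1.18 elsewhere. Across genes, Spearman's rho of relative level with GC content reached 0.444 in DMD-Null 4, 0.639 in WT 1 and 0.588 in WT 3, and lay between -0.552 and -0.0934 in the other 9. Values without WT 1 and WT 3 therefore stand beside each result that rests on them. The muscle label was borne out by 8 fast fibre markers, which summed to 58450 to 88880 CPM in DMD-Null, 59790 to 79320 CPM in mdx and 68090 to 220200 CPM in WT. Markers of other tissues differed as well. The 6 liver markers summed to 47.7 to 208 CPM in DMD-Null and 91.3 to 159 CPM in mdx, against 594 to 918 CPM in WT. The 4 lung markers summed to at most 0.109 CPM in DMD-Null and 11.3 to 13.7 CPM in mdx, against at most 0.508 CPM in WT, and the 4 smooth muscle markers to 261 to 424, 292 to 327 and 347 to 775 CPM. Their part in the results was not tested. In bulk tissue, fewer cells of a type and less RNA per cell cannot be told apart.

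The coding sequences of the pump-binding peptides are shown because sarcolipin is the gene of the set with the greatest difference between genotypes, while phospholamban, its relative in heart and slow muscle, did not pass the test. Both are read 5′ to 3′ from the GENCODE vM21 transcripts on GRCm38, on the plus strand, with the start and stop codons in capitals. Sln is encoded at chr9:53853473-53853568 in 96 bases (31 codons before the stop), and Pln at chr10:53343864-53344022 in 159 bases (52 codons before the stop).
Sln: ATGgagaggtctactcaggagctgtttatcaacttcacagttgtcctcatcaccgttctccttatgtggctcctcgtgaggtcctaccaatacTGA
Pln: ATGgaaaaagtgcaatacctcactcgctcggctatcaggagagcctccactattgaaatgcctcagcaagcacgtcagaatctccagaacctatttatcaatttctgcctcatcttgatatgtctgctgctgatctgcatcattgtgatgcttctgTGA
Each gene had 1 coding sequence in the annotation. Sln was the member with the lowest mean CPM in WT, with 25 to 61 counts per library.

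Upstream sequence is shown for Cacna1s, Ryr1 and Atp2a1, whose levels moved together across libraries. RefSeq start sites on GRCm38.p6 were found for 8 of the 10 genes, and none for Sln and Atp2a2. The printed stretches end where the deposited gene model begins, at chr1:136052561-136052749 (plus strand), chr7:29125153-29125401 (minus strand) and chr7:126463109-126463323 (minus strand), each 5′ to 3′. Capitals mark the E-box letters CANNTG, searched on both strands.
Cacna1s: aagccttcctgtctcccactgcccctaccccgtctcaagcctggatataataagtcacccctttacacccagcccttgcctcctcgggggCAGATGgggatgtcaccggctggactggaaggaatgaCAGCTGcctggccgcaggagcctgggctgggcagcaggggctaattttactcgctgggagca
Ryr1: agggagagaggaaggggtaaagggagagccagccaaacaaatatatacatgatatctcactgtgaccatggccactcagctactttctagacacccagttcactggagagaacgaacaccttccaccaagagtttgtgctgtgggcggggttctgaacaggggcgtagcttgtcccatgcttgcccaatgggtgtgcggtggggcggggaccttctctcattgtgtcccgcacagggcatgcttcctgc
Atp2a1: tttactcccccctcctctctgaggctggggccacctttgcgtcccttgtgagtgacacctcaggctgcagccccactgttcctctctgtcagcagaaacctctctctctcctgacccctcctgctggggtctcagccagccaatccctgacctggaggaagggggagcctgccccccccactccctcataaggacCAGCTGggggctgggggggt
Within 250 bases upstream, CANNTG occurred 2 times for Cacna1s, 0 times for Ryr1 and 1 time for Atp2a1. It occurred for 7 of the 8 genes with a start site, where a match at any start site of a gene counted. Pvalb had 0 at chr15:78206401-78206650 and 1 at chr15:78204238-78204487. Of all 32851 promoters of that length, each counted alone, 66.2% held it. The special case CAGCTG, itself a CANNTG, was present for 3 genes (Cacna1s, Casq1 and Atp2a1) and in 13% of all promoters. These are matches of letters only.

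With all 12 libraries, sarcolipin and the slow pump gene rose in both mutants, the voltage sensor and the release channel fell in both, the slow calsequestrin rose in mdx, and the other 5 genes did not pass. The rises of sarcolipin and the slow pump had the same size without WT 1 and WT 3, where the falls did not pass. With offsets corrected for GC content the slow pump rose less, by 0.49 and 0.48, and did not pass. Genes were tested with edgeR's quasi-likelihood test on counts, over 11376 genes with FPKM of at least 1 in at least 4 libraries. All 10 genes entered, but Sln had FPKM of at least 1 in 8 libraries only, the 8 of the mutants. Sln thus entered through the groups where it is high, and its call was the same without the filter. In DMD-Null against WT 2 genes rose and 2 fell of 10, where 28.5% of all tested genes were called, 12.9% higher and 15.6% lower. In mdx against WT 3 rose and 2 fell of 10, where 35.2% of all tested genes were called, 15% higher and 20.1% lower. The counts of called genes, 4 of 10 and 5 of 10, thus stood near the background of each comparison. The median log2 fold change of the 10 was -0.13 in DMD-Null and 0.00 in mdx, beside 0.01 and 0.00 over all tested genes. Both comparisons use the same 4 WT libraries. Without WT 1 and WT 3 the calls were 2 up and 0 down in DMD-Null (21.9% of all genes called, 12% higher and 9.84% lower) and 3 up and 0 down in mdx (23.3%, 12.4% higher and 10.9% lower). The 3 in mdx were Sln, Atp2a2 and Casq1, while Casq2 did not pass there. Among other settings named below, backgrounds were 38.1% in DMD-Null and 43.9% in mdx (offsets corrected for GC content) and 34.6% and 35.7% (library totals alone). The count in DMD-Null was 2 when any 1 of DMD-Null 1, DMD-Null 2, DMD-Null 3, WT 1 or WT 3 was left out, and 7 without WT 2. Of all 11376 tested genes, 1707 to 2306 were called in the fits with 2 members, and 6404 without WT 2.

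**Figure D1:**
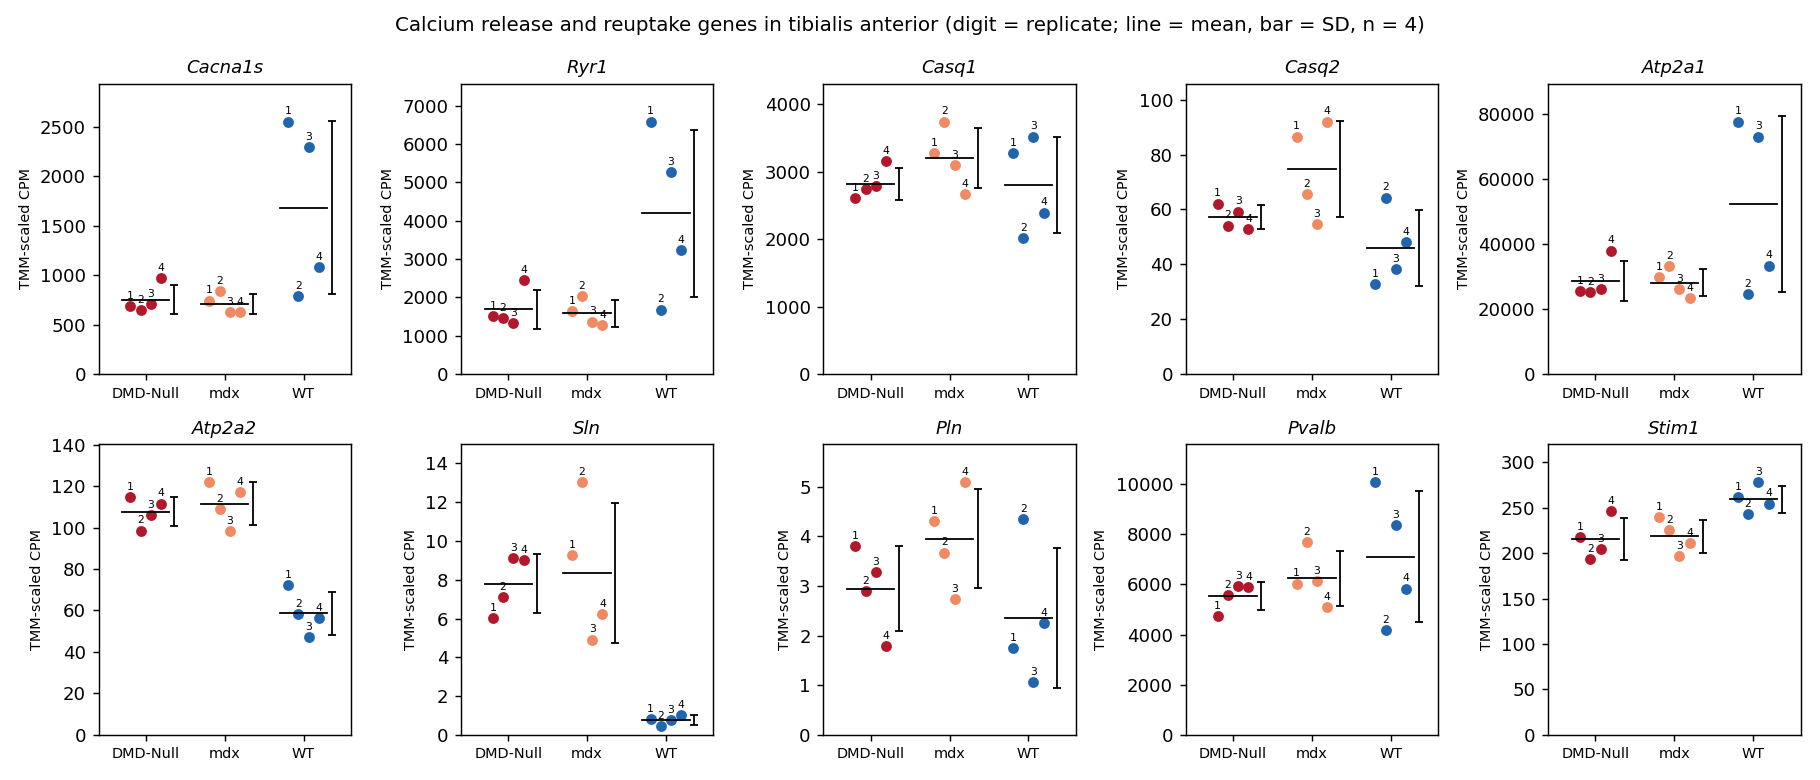
TMM-scaled CPM (y axis, each panel on its own linear scale from 0) of the 10 genes in DMD-Null, mdx and WT libraries. Points are libraries numbered by replicate, lines are means and bars are SD (n = 4). Sln and Atp2a2 of all 8 mutant libraries lie above all 4 WT libraries, while WT 1 and WT 3 are the highest libraries for Cacna1s, Ryr1 and Atp2a1.

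Cacna1s (ENSMUSG00000026407, chromosome 1 from 136052750 to 136119535) encodes the pore and voltage sensor of the dihydropyridine receptor. It stood at 687, 646, 705 and 970 CPM in DMD-Null 1 to 4 and at 742, 836, 626 and 628 CPM in mdx 1 to 4, against 2552, 791, 2295 and 1078 CPM in WT 1 to 4. WT 1 and WT 3 were high, WT 2 lay within the range of the mutants, and the groups overlapped. Cacna1s fell in DMD-Null by 1.16 on the log2 scale (SE 0.33, edgeR adjusted p = 0.023) and in mdx by 1.25 (SE 0.33, edgeR adjusted p = 0.0149). Without WT 1 and WT 3 the log2 fold changes were -0.35 in DMD-Null (edgeR adjusted p = 0.252) and -0.43 in mdx (edgeR adjusted p = 0.143). With library totals in place of TMM factors Cacna1s did not pass in DMD-Null at -0.63 (edgeR adjusted p = 0.0564).

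Ryr1 (ENSMUSG00000030592, chromosome 7 from 29003344 to 29125152) encodes the ryanodine receptor of skeletal muscle, the release channel itself. Its levels were 1512, 1456, 1325 and 2450 CPM in DMD-Null 1 to 4 and 1632, 2043, 1367 and 1283 CPM in mdx 1 to 4, against 6585, 1679, 5260 and 3227 CPM in WT 1 to 4. Again WT 1 and WT 3 were highest and WT 2 was within the mutants' range. Ryr1 fell by 1.31 on the log2 scale in DMD-Null (SE 0.37, edgeR adjusted p = 0.0217) and by 1.40 in mdx (SE 0.37, edgeR adjusted p = 0.0143), the greatest falls of the 10 genes. Without WT 1 and WT 3 the values were -0.58 (edgeR adjusted p = 0.212) and -0.67 (edgeR adjusted p = 0.142). With DMD-Null 4, the library with the highest Ryr1 among the mutants, left out as well, Ryr1 passed in DMD-Null at -0.80 (edgeR adjusted p = 0.0438) and Cacna1s at -0.48, with an edgeR adjusted p that rounds to the threshold of 0.05. In mdx, in that same fit, neither passed (edgeR adjusted p = 0.0746 for Ryr1 and 0.0701 for Cacna1s). With offsets corrected for GC content and all 12 libraries, both genes fell in both mutants, Ryr1 by 1.01 in DMD-Null and by 1.06 in mdx, and Cacna1s by 0.87 and by 0.93. In DMD-Null both calls also ended when any 1 of DMD-Null 1, DMD-Null 2, DMD-Null 3, WT 1 or WT 3 was left out, with edgeR adjusted p between 0.0549 and 0.0691.

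Beside these falls, the fast oxidative myosin Myh2 stood at 193 to 800 CPM in DMD-Null and 259 to 323 CPM in mdx, against 822 to 4924 CPM in WT. Of the 8 fast fibre markers 6 fell and 0 rose in each mutant (median -1.03 in DMD-Null and -1.05 in mdx), while edgeR called 0 in either mutant without WT 1 and WT 3 (median -0.35 and -0.30). With library totals 1 rose and 4 fell in DMD-Null, and 1 rose and 1 fell in mdx. The highest Myh2 levels were those of WT 1 (4924 CPM) and WT 3 (3195 CPM), the libraries with the highest Ryr1, Cacna1s and Atp2a1. Ryr1 and Cacna1s transcripts have a GC content of 55.9% and 55.4%, above that of 77.5% and 73.9% of the tested genes, whose median was 51.4%. The parts of fibre type and of GC content in the falls were not tested. The proportion of release channel to sensor inside a library overlapped between genotypes. Per 1000 FPKM of Cacna1s there were 664 ± 79.7 FPKM of Ryr1 in DMD-Null, 665 ± 49.8 in mdx and 749 ± 114 in WT (SD, n = 4).

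The calsequestrins bind calcium inside the store, Casq1 in fast and slow skeletal fibres and Casq2 mainly in heart and slow fibres. Casq1 (ENSMUSG00000007122, chromosome 1 from 172209894 to 172219868) stood at 2606, 2742, 2782 and 3158 CPM in DMD-Null 1 to 4 and 3271, 3743, 3099 and 2668 CPM in mdx 1 to 4, against 3280, 2010, 3520 and 2392 CPM in WT 1 to 4. The groups overlapped, and the log2 fold changes of 0.01 in DMD-Null (SE 0.19, edgeR adjusted p = 0.966) and 0.19 in mdx (SE 0.19, edgeR adjusted p = 0.422) did not pass. This value depended on scaling. With library totals in place of TMM factors Casq1 rose by 0.49 in DMD-Null (edgeR adjusted p = 0.0109) and by 0.66 in mdx (edgeR adjusted p = 0.00217). Under that scaling the median of all genes stood at 0.44 and 0.42, relative to which Casq1 stood at 0.05 and 0.24. Without WT 1 and WT 3 Casq1 passed in mdx at 0.51 (edgeR adjusted p = 0.0391) and not in DMD-Null at 0.33 (edgeR adjusted p = 0.171).

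Casq2 (ENSMUSG00000027861, chromosome 3 from 102086415 to 102146514) stood at 62.2, 54.1, 59.2 and 52.9 CPM in DMD-Null 1 to 4 and 86.5, 65.6, 54.7 and 92.0 CPM in mdx 1 to 4, against 32.9, 64.3, 38.2 and 48.1 CPM in WT 1 to 4. WT 2 lay above all DMD-Null libraries and above mdx 3, so the groups overlapped. Casq2 rose in mdx by 0.70 (SE 0.22, edgeR adjusted p = 0.0282), a 1.63-fold increase, and did not pass in DMD-Null at 0.32 (SE 0.22, edgeR adjusted p = 0.263). In mdx the call was lost when WT 1 and WT 3 were both left out, at 0.38 (edgeR adjusted p = 0.185). In DMD-Null Casq2 passed without WT 2 at 0.52 (edgeR adjusted p = 0.038), where edgeR called 6404 of 11376 genes. In the same comparison limma on log2(FPKM + 1) called Casq2 at 0.78 (adjusted p = 0.0316), beside 5527 of all tested genes. The all-gene median under limma was 0.36, relative to which Casq2 stood at 0.42. The call in mdx also ended when WT 1, WT 3, mdx 1 or mdx 4 alone was left out, with edgeR adjusted p between 0.0758 and 0.0859. Casq2 made up 1.43% ± 0.206 of calsequestrin FPKM in DMD-Null, 1.68% ± 0.559 in mdx and 1.28% ± 0.710 in WT (SD, n = 4), with overlapping groups. The 8 markers of slow fibres, where Casq2 is also made, summed to 154 to 244 CPM in DMD-Null, 160 to 211 CPM in mdx and 131 to 723 CPM in WT. Of these 8 markers 1 rose and 2 fell in each mutant (median log2 fold change -0.46 in DMD-Null and -0.54 in mdx). When WT 1 and WT 3 were left out, 4 rose and 1 fell in DMD-Null (median 1.14) and 4 rose and 2 fell in mdx (median 0.45), and with library totals 2 rose and 1 fell in DMD-Null and 2 rose and 2 fell in mdx. Their part in the level of Casq2 was not tested.

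Atp2a1 (ENSMUSG00000030730, chromosome 7 from 126445858 to 126463108) encodes the pump of fast fibres and was the most abundant of the 10 per length. It stood at 25532, 25261, 26086 and 37990 CPM in DMD-Null 1 to 4 and 29734, 33206, 26160 and 23430 CPM in mdx 1 to 4, against 77645, 24685, 72980 and 33362 CPM in WT 1 to 4. WT 1 and WT 3 were again high, and WT 2 and WT 4 lay within the range of the mutants. The log2 fold changes of -0.86 in DMD-Null (SE 0.34, edgeR adjusted p = 0.075) and -0.89 in mdx (SE 0.34, edgeR adjusted p = 0.0592) did not pass. Without WT 1 and WT 3 they were -0.05 and -0.08. Atp2a1 passed with GC-corrected offsets, at -0.66 in each mutant (edgeR adjusted p = 0.0459 in DMD-Null and 0.0403 in mdx), and when WT 2 or WT 4 alone was left out, at -1.09 and -1.03 in DMD-Null and -1.12 and -1.05 in mdx. With all 12 libraries DESeq2 also called Atp2a1 lower in both mutants, beside 4328 of all tested genes in DMD-Null and 5123 in mdx.

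Atp2a2 (ENSMUSG00000029467, chromosome 5 from 122453513 to 122502174) encodes the pump of slow fibres, heart and many other cells. Its levels were 115, 98.6, 106 and 112 CPM in DMD-Null 1 to 4 and 122, 109, 98.3 and 117 CPM in mdx 1 to 4, against 72.3, 58.4, 47.2 and 56.4 CPM in WT 1 to 4. All 8 mutant libraries lay above all 4 WT libraries, without overlap. Among the 10 genes, Atp2a2 and Sln were higher without overlap in each mutant, where 11.6% of all genes were so in DMD-Null and 16% in mdx. Atp2a2 rose by 0.88 in DMD-Null (SE 0.14, edgeR adjusted p = 0.00117), which is 1.84-fold (95% interval 1.49 to 2.27), and by 0.93 in mdx (SE 0.14, edgeR adjusted p = 0.000728), which is 1.90-fold (1.54 to 2.35). Both rises had the same size with WT 1 and WT 3 left out, 0.88 (edgeR adjusted p = 0.000403) and 0.93 (edgeR adjusted p = 0.000274). Under offsets corrected for GC content the values were 0.49 and 0.48, and neither passed (edgeR adjusted p = 0.0686 in DMD-Null and 0.0685 in mdx). Atp2a2 transcripts have a GC content of 46.6%, above that of 23.6% of the tested genes.

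Atp2a2 was still a small part of pump transcripts. Of the FPKM of both pumps it made up 0.219% ± 0.0373 in DMD-Null, 0.230% ± 0.0413 in mdx and 0.0804% ± 0.0442 in WT (SD, n = 4). The 8 mutant libraries ran from 0.168% to 0.285% and the WT libraries from 0.0369% to 0.135%, without overlap. Of the 8 slow fibre markers 1 rose and 2 fell in each mutant with all libraries, while without WT 1 and WT 3, where Atp2a2 also passed, 4 rose and 1 fell in DMD-Null and 4 rose and 2 fell in mdx. The 6 macrophage markers summed to 172 to 358 CPM in DMD-Null and 300 to 353 CPM in mdx, against 48.6 to 122 CPM in WT. The 4 fibroblast markers summed to 962 to 1149 CPM and 1091 to 1298 CPM, against 211 to 576 CPM in WT. Of the macrophage markers 5 rose in DMD-Null and 6 in mdx, and of the fibroblast markers 3 and 4. The part of slow fibres, macrophages and fibroblasts in the rise of Atp2a2 was not tested.

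Sln (ENSMUSG00000042045, chromosome 9 from 53850164 to 53854560) encodes sarcolipin, the peptide that binds the pump in skeletal muscle and atrium and lowers the calcium it moves. Its counts were 404, 504, 667 and 587 in DMD-Null 1 to 4 and 680, 891, 359 and 443 in mdx 1 to 4, against 35, 25, 32 and 61 in WT 1 to 4. In CPM this was 6.01, 7.12, 9.10 and 8.999 in DMD-Null and 9.29, 13.03, 4.91 and 6.21 in mdx, against 0.806, 0.435, 0.744 and 1.03 in WT. The lowest mutant library, mdx 3, held more than the highest WT library, WT 4, and the groups did not overlap. Sln rose by 3.37 in DMD-Null (SE 0.35, edgeR adjusted p = 8.66e-05), which is 10.3-fold (95% interval 6.06 to 17.6), and by 3.47 in mdx (SE 0.35, edgeR adjusted p = 6.8e-05), which is 11.1-fold (6.47 to 18.9). Without WT 1 and WT 3 the rises were 3.37 (edgeR adjusted p = 0.000771) and 3.47 (edgeR adjusted p = 0.000623). With GC-corrected offsets they were 3.03 and 3.07, and Sln passed in each of the 24 alternative fits in which it could be tested, in both comparisons.

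Sln is also an atrial gene, so heart markers were read in the same libraries. The 6 heart markers summed to 1.46 to 6.39 CPM in DMD-Null and 2.595 to 8.02 CPM in mdx, against 5.60 to 36.6 CPM in WT. These sums were mostly Myh6, at 3.02 ± 2.34 CPM in DMD-Null and 3.85 ± 1.81 CPM in mdx, against 17.7 ± 12.9 CPM in WT (SD, n = 4). Tnni3, the cardiac troponin gene, averaged 0.207 CPM in DMD-Null and 0.570 CPM in mdx, against 0.443 CPM in WT, and Nppb 0.0992 and 0.0274 CPM, against 0 in WT. Myl7, the light chain that marks atrium, had 0, 0, 0 and 5 counts in DMD-Null 1 to 4 and 0 counts in each mdx library, against 6, 6, 7 and 0 counts in WT 1 to 4. Of the 5 markers of regenerating fibres, 4 rose and 1 fell in each mutant. The one that fell, the perinatal myosin Myh8, averaged 190.2 ± 73.9 CPM in DMD-Null and 217 ± 62.5 CPM in mdx, against 557 ± 366 CPM in WT (SD, n = 4). The summed level, of which Myh8 was 143 to 301 CPM in DMD-Null, 166 to 306 CPM in mdx and 178 to 998 CPM in WT, was 240 to 424 CPM in DMD-Null, 312 to 473 CPM in mdx and 184 to 1015 CPM in WT. The embryonic myosin Myh3, the myogenic factor Myog and the fusion genes Mymk and Mymx rose, with log2 fold changes of 2.91 (Myh3) to 6.02 (Mymk) in DMD-Null and 3.43 (Myh3) to 6.59 (Mymk) in mdx. With WT 1 and WT 3 left out, or with library totals, 4 rose and 0 fell in each mutant. The parts of heart tissue and of regenerating fibres in the rise of Sln were not tested.

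Pln (ENSMUSG00000038583, chromosome 10 from 53337667 to 53345987) encodes phospholamban. It was the gene of the set with the lowest mean FPKM in both mutants. Its levels were 3.81, 2.89, 3.27 and 1.79 CPM in DMD-Null 1 to 4 and 4.30, 3.67, 2.74 and 5.09 CPM in mdx 1 to 4, against 1.75, 4.35, 1.07 and 2.25 CPM in WT 1 to 4. The groups overlapped, and the log2 fold changes of 0.32 in DMD-Null (SE 0.38, edgeR adjusted p = 0.523) and 0.74 in mdx (SE 0.39, edgeR adjusted p = 0.14) did not pass. In mdx Pln passed without WT 2 at 1.22 (edgeR adjusted p = 0.00954), where edgeR called 6874 of 11376 genes. Leaving out WT 1 and WT 3 gave 0.24 in mdx (edgeR adjusted p = 0.671) and -0.19 in DMD-Null (edgeR adjusted p = 0.748). In mdx limma on log2(FPKM + 1) called Pln at 0.58 (adjusted p = 0.0272), beside 5721 of all tested genes. The all-gene median under limma was 0.35, relative to which Pln stood at 0.23. The share of Pln among the peptides, which was not tested, did not overlap between mutants and WT. Pln made up 15.7% ± 5.95 of the FPKM of both peptides in DMD-Null and 19.7% ± 6.75 in mdx, against 56.3% ± 18.6 in WT (SD, n = 4). Mutant libraries ran from 8.67% to 28.1% and WT libraries from 40.2% to 83.2%.

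Set against the main pump inside each library, sarcolipin stood apart as well. Per 1000 FPKM of Atp2a1 there were 0.621, 0.742, 0.920 and 0.625 FPKM of Sln in DMD-Null 1 to 4 and 0.823, 1.03, 0.495 and 0.698 in mdx 1 to 4, against 0.0272, 0.0448, 0.0267 and 0.0812 in WT 1 to 4. Even in the mutants, then, sarcolipin transcripts per length were about 1 per 1000 of the pump's or fewer. Casq1 per 1000 FPKM of Atp2a1 ran from 148 to 211 in the mutants and from 75.3 to 145 in WT, without overlap. Casq1 per 1000 FPKM of Ryr1 ran from 14430 to 25380 in the mutants and from 5576 to 13400 in WT, also without overlap. In both ratios WT 2 came closest to the mutants, and DMD-Null 4 was the mutant library nearest to WT. These ratios do not depend on how libraries are scaled, and no test was made of them. They can still depend on GC content, which differs within the pairs. It was 47.0% for Sln and 52.2% for Casq1 transcripts, against 54.2% for Atp2a1 and 55.9% for Ryr1. WT 1 and WT 3 had the lowest values of both Casq1 ratios. The part of the GC trend in these ratios was not tested.

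**Figure D2:**
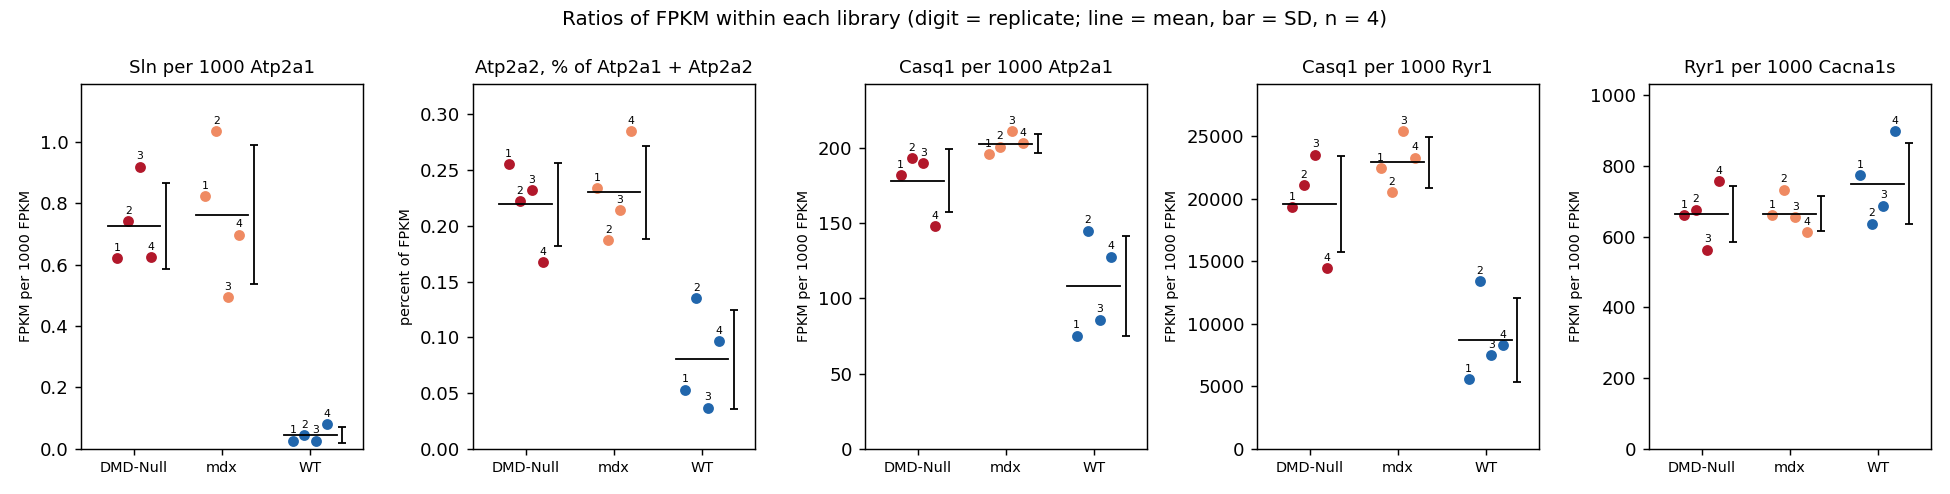
Ratios of FPKM inside each library for 5 pairs of genes (y axes linear, from 0) in DMD-Null, mdx and WT, with points numbered by replicate, lines at the mean and bars for SD (n = 4). The groups separate in the first 4 panels (Sln and Casq1 over Atp2a1, Atp2a2 over both pumps, Casq1 over Ryr1) and overlap for Ryr1 over Cacna1s.

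Pvalb (ENSMUSG00000005716, chromosome 15 from 78191114 to 78206400) encodes parvalbumin, the calcium buffer of fast fibres. It stood at 4738, 5579, 5937 and 5877 CPM in DMD-Null 1 to 4 and 6030, 7701, 6132 and 5089 CPM in mdx 1 to 4, against 10074, 4171, 8376 and 5832 CPM in WT 1 to 4. WT held both the highest and the lowest values. The log2 fold changes were -0.36 in DMD-Null (SE 0.25, edgeR adjusted p = 0.263) and -0.19 in mdx (SE 0.25, edgeR adjusted p = 0.541), and neither passed. Leaving out WT 1 and WT 3 gave 0.11 in DMD-Null and 0.29 in mdx. With library totals alone they were 0.14 and 0.30, which relative to the median of all genes is -0.30 and -0.12.

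Stim1 (ENSMUSG00000030987, chromosome 7 from 102267806 to 102437319) encodes the sensor that opens store-operated entry. Its levels were 218, 193, 204 and 246 CPM in DMD-Null 1 to 4 and 240, 225, 197 and 211 CPM in mdx 1 to 4, against 262, 243, 278 and 254 CPM in WT 1 to 4. All mdx libraries lay below all WT libraries, as did 14.7% of all genes in that comparison, while DMD-Null 4 lay within WT. The log2 fold changes of -0.27 (SE 0.12, edgeR adjusted p = 0.102) and -0.25 (SE 0.12, edgeR adjusted p = 0.114) did not pass. Without WT 1 and WT 3 they were -0.24 in DMD-Null (edgeR adjusted p = 0.194) and -0.22 in mdx (edgeR adjusted p = 0.232). Among 25 alternative fits Stim1 passed in 3 in DMD-Null and 1 in mdx. DESeq2 called it lower in both mutants. Without DMD-Null 4 it passed in DMD-Null at -0.36 (edgeR adjusted p = 0.0476), where edgeR called 3316 of 11376 genes. With library totals alone the log2 fold changes were 0.17 and 0.19, which relative to the median of all genes is -0.27 and -0.24.

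**Figure D3:**
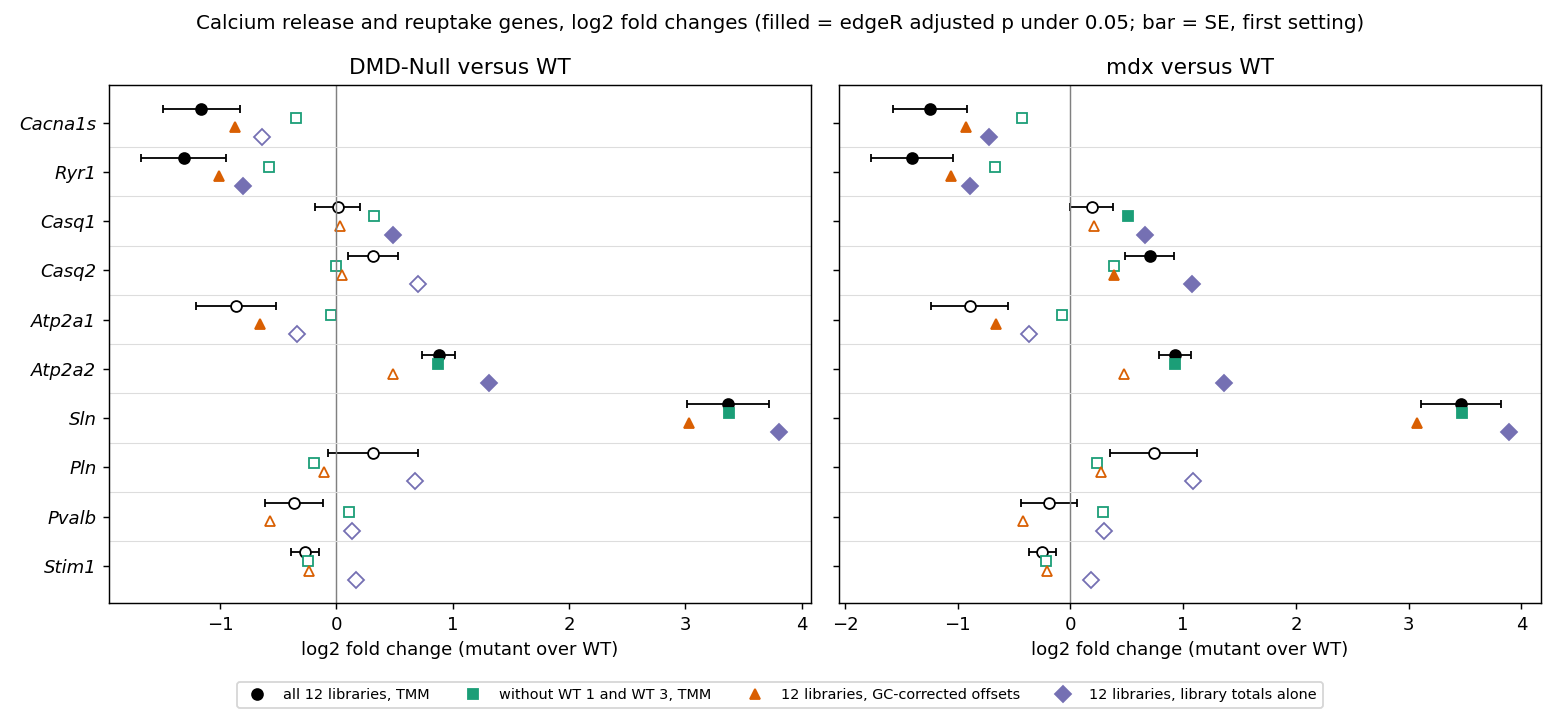
Log2 fold changes over WT (x axis) of the 10 genes in DMD-Null (left) and mdx (right) under 4 settings, namely all 12 libraries with TMM factors (with SE bars), without WT 1 and WT 3, GC-corrected offsets, and library totals alone. Filled symbols passed an edgeR adjusted p of 0.05. Sln stays above 3 in all settings shown, and Cacna1s, Ryr1 and Atp2a1 move toward 0 without WT 1 and WT 3.

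DMD-Null and mdx muscle were compared directly, which also tests whether the changes from WT differ between the mutants. None of the 10 genes passed edgeR's test, at an adjusted p of 1 for each, and 0 of 10 had an unadjusted p under 0.05. DESeq2 called 0 of 10 as well, where 0.0176% of all tested genes were called by edgeR. The intervals show what size of difference remains possible. The 95% interval of the log2 fold change of DMD-Null over mdx ran from -0.78 to 0.58 for Sln, from -0.35 to 0.25 for Atp2a2, from -0.69 to 0.87 for Ryr1 and from -0.62 to 0.79 for Cacna1s. It was widest for Pln (-1.25 to 0.41) and narrowest for Stim1 (-0.28 to 0.24). Casq2 stood at -0.39 (-0.86 to 0.08), with 57.1 ± 4.35 CPM in DMD-Null and 74.7 ± 17.5 CPM in mdx (SD, n = 4).

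Per length, in FPKM, the order of levels in WT was Atp2a1 (10050 ± 3654), Pvalb (4690 ± 1029), Casq1 (999 ± 99.8), Cacna1s (172 ± 62.9), Ryr1 (129 ± 49.4), Stim1 (17.9 ± 2.55), Casq2 (12.5 ± 5.76), Atp2a2 (6.91 ± 1.51), Pln (0.650 ± 0.480) and Sln (0.406 ± 0.170; SD, n = 4 each). In WT, libraries overlapped between Cacna1s and Ryr1, between Stim1 and Casq2, between Casq2 and Atp2a2 and between Pln and Sln. The other WT neighbours did not overlap. Inside single libraries Cacna1s was above Ryr1 and Casq2 above Atp2a2 in 4 of 4 WT libraries, whereas Stim1 was above Casq2, and Pln above Sln, in 3 of 4. In the mutants the last places were exchanged. Sln averaged 5.87 ± 1.14 FPKM in DMD-Null and 6.23 ± 2.55 in mdx, and Pln averaged 1.06 ± 0.316 and 1.41 ± 0.363, with no overlap between the peptides. Casq2 (20.7 ± 1.89 in DMD-Null and 27.1 ± 6.45 in mdx) stood beside Stim1 (20.5 ± 1.104 and 20.8 ± 1.44) and overlapped it.

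Across the 12 libraries the 10 genes fell into a few patterns. Correlations of log2 CPM are given as a description, since the libraries share genotype, depth and GC trend. Cacna1s and Ryr1 had a Pearson's r of 0.981 (0.968 over the 10 libraries without WT 1 and WT 3), and Cacna1s and Atp2a1 had 0.980 (0.836 over the 10). Atp2a2 and Sln had 0.923 (0.932), and Casq2 and Pln, the genes typical of heart and slow fibres, had 0.879 (0.843). Casq1 and Pvalb had 0.793 (0.869). The relation of Sln to Casq1 was 0.380 over 12 libraries and 0.858 over the 10, so it was set by which libraries were included.

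The tested genes outside the set whose pattern was most like each member were found by Pearson's r of log2 CPM over the 12 libraries. For Ryr1 Myom1, which encodes the M-band protein myomesin, had 0.989. For Cacna1s they were Tsc2 (0.997) and Sympk (0.996), and for Atp2a1 Trappc9 (0.996) and Ercc1 (0.995). For Sln they were Gm266 (0.970) and the laminin chain gene Lamc1 (0.970), and for Atp2a2 Dusp18 (0.978) and the matrix peroxidase gene Pxdn (0.975). For Casq1 they were the proteasome subunit gene Psmc1 (0.944) and Fam110a (0.941), and for Pvalb Zfp622 (0.966) and the survival motor neuron gene Smn1 (0.963). Casq2 was most like Gm10131 (0.936) and the matrix gene Fbln5 (0.934), Pln most like Gpr155 (0.963) and Pls3 (0.960), and Stim1 most like Mtif3 (0.934) and Gstz1 (0.924). Over the 10 libraries without WT 1 and WT 3 these r ran from 0.865 (Casq2 and Fbln5) to 0.989 (Atp2a1 and Ercc1).

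The other proteins of the triad, which hold the sensor and the channel in place and tune them, were read from a list of 24 genes, of which 21 were tested. In DMD-Null 1 rose, 4 fell and 16 did not pass, and in mdx 1 rose, 6 fell and 14 did not pass. Beside this list and those below, 12.9% of all tested genes rose and 15.6% fell in DMD-Null. In mdx 15% rose and 20.1% fell. The list's median was -0.16 in DMD-Null and -0.18 in mdx, beside 0.01 and 0.00 over all tested genes. Leaving out WT 1 and WT 3 gave 1 rise and 4 falls in each mutant. The list's medians were then -0.03 and -0.18, beside -0.01 and -0.02 over all tested genes. With library totals alone 4 rose and 1 fell in DMD-Null and 4 rose and 2 fell in mdx, and the list's medians of 0.26 and 0.30 stood below the all-gene medians of 0.44 and 0.42 of that scaling. Stac3, an adaptor that the voltage sensor needs to open the channel, fell to 150 ± 18.2 CPM in DMD-Null and 150.0 ± 8.87 CPM in mdx, against 251 ± 47.2 CPM in WT (SD, n = 4). Its falls of 0.74 in DMD-Null (edgeR adjusted p = 0.00527) and 0.74 in mdx (edgeR adjusted p = 0.00473) also passed without WT 1 and WT 3, at -0.55 in each (edgeR adjusted p = 0.0176 and 0.0171), but not with library totals, at -0.28 in each (edgeR adjusted p = 0.0636 and 0.0613). Jsrp1, which encodes a triad protein that binds calsequestrin and the sensor, fell by 1.39 and by 1.52, and Speg, a kinase gene needed for triads, fell by 1.38 and by 1.63. Without those WT libraries neither passed, with edgeR adjusted p of 0.633 in DMD-Null and 0.353 in mdx for Jsrp1 and 0.216 and 0.0689 for Speg. Cacnb1, the beta subunit of the sensor, fell in mdx by 0.92 (edgeR adjusted p = 0.0351; 0.519 without WT 1 and WT 3). The calmodulin gene Calm2 was the gene that rose, by 0.62 and by 0.61, and without those WT libraries its edgeR adjusted p was 0.193 and 0.211.

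Among further regulators of the pump, 2 genes were tested. Atp2a3, the pump of blood and endothelial cells, fell in DMD-Null by 0.91 (edgeR adjusted p = 0.00978) and in mdx by 0.88 (edgeR adjusted p = 0.0103), and in the 10 libraries left by dropping WT 1 and WT 3 its edgeR adjusted p was 0.0523 and 0.0638. Mrln, which encodes myoregulin, the pump-binding peptide of skeletal muscle, averaged 5.72 ± 2.52 CPM in DMD-Null and 9.93 ± 2.71 CPM in mdx, against 12.6 ± 1.27 CPM in WT (SD, n = 4). It fell in DMD-Null by 1.13 (edgeR adjusted p = 0.0116; 0.0329 without WT 1 and WT 3) and did not pass in mdx at -0.34 (edgeR adjusted p = 0.318). The difference between the mutants in Mrln was -0.80 and did not pass either (edgeR adjusted p = 1).

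Of 7 tested genes of store-operated entry, Orai2, a pore subunit of the channel that STIM1 opens, rose in DMD-Null by 0.74 (edgeR adjusted p = 0.0169) and in mdx by 0.68 (edgeR adjusted p = 0.0205). Orai2 reached FPKM of 1 only in mutant libraries and so entered the test through them, and without the filter it passed as well, by 0.78 in DMD-Null and 0.72 in mdx (edgeR adjusted p = 0.0199 in DMD-Null and 0.0261 in mdx). Its rises were 0.96 and 0.91 without WT 1 and WT 3, and none of the other 6 passed with all libraries. The list's median was 0.00 in DMD-Null and 0.07 in mdx. Of 5 genes that carry calcium out across the fibre membrane, the sodium-calcium exchanger Slc8a3 rose by 0.68 in DMD-Null (edgeR adjusted p = 0.0051) and by 0.58 in mdx (edgeR adjusted p = 0.0097), and both rises passed without WT 1 and WT 3 (0.76 and 0.67). Its relative Slc8a2 fell in mdx by 0.87 (edgeR adjusted p = 0.0207; 0.126 without WT 1 and WT 3). The median of these 5 genes was 0.06 in DMD-Null and 0.15 in mdx.

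Calcium uptake into mitochondria was read from 9 genes, all tested, of which 3 rose and 1 fell in each mutant. Of all tested genes 12.9% rose and 15.6% fell in DMD-Null, and 15% rose and 20.1% fell in mdx. Mcub, a subunit that dampens the mitochondrial uniporter, rose to 3.74 ± 0.750 CPM in DMD-Null and 3.27 ± 0.404 CPM in mdx, against 1.096 ± 0.374 CPM in WT (SD, n = 4). Its log2 fold changes were 1.77 (edgeR adjusted p = 0.000611) and 1.57 (edgeR adjusted p = 0.0011), and they were 1.65 and 1.46 without WT 1 and WT 3. Mcub reached FPKM of 1 in 8 mutant libraries and 1 WT library, so it too entered through the mutants, and without the filter it passed at 1.80 and 1.61 (edgeR adjusted p = 0.00081 in DMD-Null and 0.00145 in mdx). Micu2, a gatekeeper of the uniporter, rose by 0.70 and by 0.62, and Slc8b1, the mitochondrial sodium-calcium exchanger, rose by 0.55 and by 0.76. Letm1, an inner membrane gene linked to ion exchange, fell by 0.63 and by 0.67. Micu2 did not pass when offsets were corrected for GC content, with edgeR adjusted p of 0.147 and 0.582, and Letm1 did not pass when WT 1 and WT 3 were left out, with 0.161 and 0.114, or with library totals, with 0.242 and 0.171. The median over the 9 genes was 0.32 in DMD-Null and 0.27 in mdx, beside 0.01 and 0.00 over all tested genes. With GC-corrected offsets it was 0.07 and -0.02, beside -0.06 and -0.08 over all tested genes.

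Of the 3 receptors for inositol trisphosphate, another release channel, Itpr1 alone was tested, at -0.17 in DMD-Null (edgeR adjusted p = 0.40) and 0.09 in mdx (edgeR adjusted p = 0.656). Of 13 genes of calmodulin kinase, calcineurin and NFAT, which read the calcium signal, 0 passed edgeR's test in either mutant, with 0 and 2 at an unadjusted p under 0.05. DESeq2 called 1 lower in each mutant. Camk2a, the one with the highest FPKM averaged over the 12 libraries, stood at -0.22 in DMD-Null (edgeR adjusted p = 0.145) and -0.17 in mdx (edgeR adjusted p = 0.238). Between DMD-Null and mdx, no gene of any of these lists passed, with 1 (Mrln) at an unadjusted p under 0.05 and 0 called by DESeq2. The genes with the highest FPKM averaged over the 12 libraries in their lists had a log2 fold change of DMD-Null over mdx of 0.08 for Tmem38a, 0.00 for Saraf, 0.10 for Slc8a3, 0.07 for Smdt1 and -0.05 for Camk2a.

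**Figure D4:**
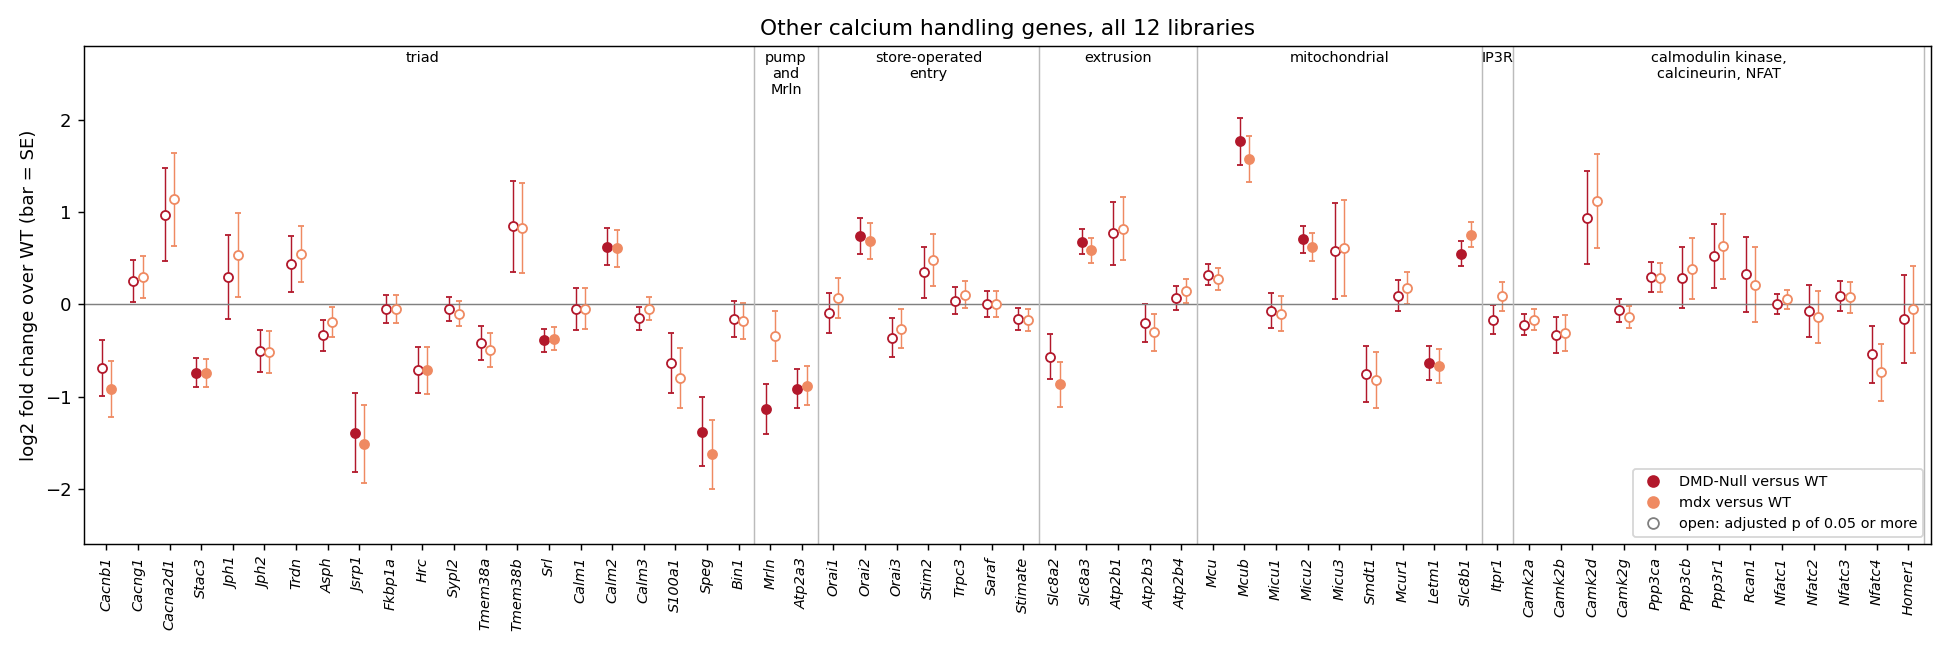
Log2 fold changes over WT (y axis, bars are SE) of the tested calcium handling genes outside the set of 10, grouped by role along the x axis, in DMD-Null and mdx. Filled points passed an edgeR adjusted p of 0.05. Mcub, Orai2 and Slc8a3 lie above 0 in both mutants, and Jsrp1, Speg and Stac3 lie below.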

How the data were processed

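Stranded TruSeq libraries of poly(A) RNA were sequenced, per the labels' protocols. The submitters' processing notes list HISAT2 2.0, StringTie 1.3.4, cutadapt 1.10 and FastQC 0.10.1. The deposited table gives, for each gene and library, a whole-number read count without normalization. It also gives FPKM, in which the authors divided by gene length and library size. The strand setting of the counting was not stated, so overlapping and antisense genes are uncertain. The notes name GRCm39, but 99.7% of the 30155 genes shared with the GRCm38 annotation had the same start or end, so positions are read as GRCm38.

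Genotypes were taken from the labels. Counts were tested with edgeR 4.0.16 in R 4.3.3 (quasi-likelihood, TMM factors, all 12 libraries, no covariate), with Benjamini-Hochberg adjustment over 11376 genes and a threshold of 0.05. SE is the absolute log2 fold change over the square root of F. CPM were scaled by TMM factors, with a prior count of 2 where logged. GC-corrected offsets came from a loess curve (span 0.5). No pair of replicates agreed within sampling noise. The test was checked on simulated data of mdx against WT over 11376 genes. It recovered 39.6% of 91 genes changed by 1 log2 unit and 92.7% of 109 changed by 2 units, with 9 false calls. The measured libraries gave 4001 calls in that comparison. Whether these rates hold for the measured libraries was not tested.

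The 10 genes, the gene lists and the alternatives were chosen with earlier results of these data known. Named from each list were up to 3 called genes per direction and comparison with the greatest change, or otherwise the gene with the highest mean FPKM, all tested pump regulators and receptors for inositol trisphosphate, and the 2 most alike genes per member, of which 1 is not reported here. Alternatives were other filters and scalings, DESeq2 1.42.0, limma 3.58.1 on log2(FPKM + 1) or log2(FPKM + 0.1), a replicate block, the 8 libraries compared, and libraries left out. The ratios within a library, library totals without WT 1 and WT 3, and the listed genes without the filter were added after seeing the data.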

Additional observations from a re-analysis of the deposited data

Results flagged for a closer look

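In DMD-Null 4, Ryr1 stood at 2450 CPM, far from the other DMD-Null libraries, which held 1325 to 1512 CPM. In the same library Atp2a1 stood at 37990 CPM, against 25260 to 26090 CPM in the other 3. A gap of this size relative to the range of 4 samples is expected by chance in about 1 of 20 groups, and 2 of 39 groups were marked. DMD-Null 4 also had a Spearman's rho of level with GC content of 0.444, next to 0.639 in WT 1 and 0.588 in WT 3. WT 4, with Ryr1 at 3227 CPM and Atp2a1 at 33362 CPM, had a rho of -0.0934. The part of that trend in these values was not tested. Without DMD-Null 4 the log2 fold changes of DMD-Null over mdx were -0.15 for Ryr1 and -0.14 for Atp2a1, in place of 0.09 and 0.03.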

How the results depend on the processing

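Sln passed in all 24 alternative fits that could test it in each mutant (2.28 to 3.8 in DMD-Null, 2.30 to 3.89 in mdx, edgeR, DESeq2 or limma adjusted p at most 0.00143), and Atp2a2 in 24 of 25, the exception being GC-corrected offsets. Under a mean FPKM of at least 5, Sln and Pln could not be tested. Replicate numbers did not pair the libraries: deviations of same-numbered libraries correlated at -0.587 to 0.217, and 1 of 12 libraries correlated best with its own number. With the replicate block the calls were 1869 genes and 2 members in DMD-Null against WT, 2377 and 2 in mdx against WT, and 0 genes between the mutants.

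Called genes over all tested were 3241, 4001 and 2 in DMD-Null against WT, mdx against WT and DMD-Null against mdx. They were 1483, 1701 and 1 with a mean FPKM of at least 5, 1398, 2268 and 4 with the 8 libraries compared, 2649 in mdx without WT 1 and WT 3, and 1 between the mutants without WT 1, WT 3 and DMD-Null 4. They were 6 between the mutants with DESeq2, and 5527 and 5430 in DMD-Null with limma on log2(FPKM + 1) and log2(FPKM + 0.1). Scaled by library totals, DMD-Null had 3360 calls up and 574 down and mdx 3350 and 707, where TMM factors gave 1471 and 1770, and 1709 and 2292. Leaving out 1 library gave 1707 to 6404 genes in DMD-Null, 2300 to 6874 in mdx (both highest without WT 2) and 1 to 2 between the mutants, and 2 to 7 members in DMD-Null and 4 to 7 in mdx. DESeq2 called 6 members in DMD-Null (2 up, 4 down) and 7 in mdx (3 up, 4 down), and limma on either log scale 4 (4 up) and 7 (5 up, 2 down). Of all 11376 tested genes, DESeq2 called 4328 in DMD-Null and 5123 in mdx. Limma called 5527 (4962 up) and 5721 (5049 up) on log2(FPKM + 1), and 5430 (4883 up) and 5682 (5034 up) on log2(FPKM + 0.1). Members called were 5 in DMD-Null without WT 1, WT 3 and DMD-Null 4, 2 in DMD-Null with the 8 libraries and without WT 1 and WT 3, and 3 in mdx without WT 1 and WT 3, with or without DMD-Null 4. The fit without WT 1, WT 3 and DMD-Null 4 called 3304 of all tested genes in DMD-Null and 3377 in mdx. From CPM in place of FPKM, Atp2a2 was 0.383%, 0.402% and 0.141% of the pumps in DMD-Null, mdx and WT, Casq2 1.999% and 2.34% of calsequestrin and Pln 27.7% and 33.6% of the peptides in DMD-Null and mdx, since CPM ignore length.

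Some values changed sign. For Pvalb in DMD-Null against WT they were 0.14 (library totals), 0.11 (without WT 1 and WT 3), 0.10 (also without DMD-Null 4), 0.37 (library totals without WT 1 and WT 3, a setting chosen after seeing the data) and 0.19 (limma, both pseudocounts), and in mdx 0.30, 0.29, 0.31, 0.53 and 0.35 in turn, 0.0065 with a mean FPKM of at least 5, and -0.38 to 0.010 (0.0102 without WT 1) when 1 library was left out. For Stim1 in DMD-Null and mdx they were 0.17 and 0.19 (library totals), 0.0095 and 0.029 (library totals without WT 1 and WT 3), and 0.20 and 0.22 or 0.20 and 0.23 (limma). Atp2a1 was 0.20 and 0.17 with library totals without WT 1 and WT 3. With library totals the median of all genes was 0.44 and 0.42, and 0.25 and 0.23 without WT 1 and WT 3. Relative to these medians Stim1 stood at -0.27 and -0.24, and at -0.24 and -0.20 without WT 1 and WT 3. In the latter setting Atp2a1 stood at -0.05 and -0.06 relative to the median, and Pvalb at 0.12 and 0.31. In DMD-Null against WT, Casq1 was -0.026 (median-of-ratios and DESeq2) and -0.12 to 0.12 with 1 library left out (below 0 without DMD-Null 4, WT 2 or WT 4), Casq2 was -0.0066 without WT 1 and WT 3, and Pln was -0.10 (GC-corrected), -0.19 (without WT 1 and WT 3) and -0.0022 (also without DMD-Null 4). In DMD-Null against mdx, where no member passed under any alternative, Atp2a2 was 0.011 (GC-corrected), and Cacna1s, Ryr1 and Atp2a1 were -0.070, -0.16 and -0.15 without WT 1, WT 3 and DMD-Null 4. With 1 library left out, Cacna1s was -0.067 to 0.18, Ryr1 -0.15 to 0.24, Atp2a1 -0.14 to 0.12, Sln -0.28 to 0.20 and Stim1 -0.098 to 0.029. Of all member values under alternatives, with the 3 comparisons pooled, 627 kept direction and call, 41 lost the call, 29 gained it and 47 changed sign. These totals include DMD-Null against mdx, where there was no call to lose. The cause of the sign changes was not tested.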
